A study of Mus musculus with 15 samples.

Results

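The Id genes (inhibitor of DNA binding) Id1, Id2, Id3 and Id4 were followed in mouse embryonic fibroblasts (MEFs) of an established line, labelled 3T3 and named Balb/c/3T3 clone A31 in the study's methods, left untreated or exposed to 1 of 4 cytokine treatments. The members were chosen by name: every probe on the array whose RefSeq transcript belongs to 1 of these genes was taken, which gave 1 probe and 1 spot for each, 4 probes of 56605 in all and 4 genes of 23462 that could be named. The study asked which genes separate fibroblasts driven towards inflammation by tumour necrosis factor (TNFα) from fibroblasts driven towards fibrosis by transforming growth factor (TGFß1). Each group held 3 one-colour Agilent arrays, 15 in all: control MEFs with no cytokine, MEFs with TNFα at 10 ng/ml, with TGFß1 at 5 ng/ml, with interleukin-1β (IL-1β) at 1 ng/ml, and with interleukin-6 at 20 ng/ml given with its soluble receptor (sIL-6Rα) at 25 ng/ml. Control, TNFα and TGFß1 arrays came from a 24 h exposure per the study's methods; the labels do not tell which of the culture times they name applies to the IL-1β and IL-6 arrays, so that for these groups a difference in time and a difference in treatment cannot be told apart. Every group was the same cell line with a single dose of each agent, and a bulk RNA of cultured cells was measured. The study describes its replicates as independent experiments, while the labels do not say that arrays of a group came from separate cultures; if they did not, the tests measure only the spread between these arrays.

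Id proteins are small helix-loop-helix proteins that lack the basic region with which their relatives contact DNA. They pair with the widely made E proteins (Tcf3, Tcf4 and Tcf12) and keep them, and the tissue-restricted factors that depend on E proteins, off their DNA sites, so that high Id levels are known for proliferating and undifferentiated cells. Their genes are classical targets of bone morphogenetic protein (BMP) signalling, which acts through SMAD1, SMAD5 and SMAD9, whereas TGFß1, which acts mainly through SMAD2 and SMAD3, is known to lower Id genes in some cell types and to raise them in others.

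The sequences around the annotated transcription starts are shown first, because all 4 members were lower with TGFß1 and the starts can be set side by side for elements that they share. RefSeq windows of 300 bases (250 before the start, 50 from it on; build GRCm38.p6) were at hand for 3 of the 4 genes, Id2, Id3 and Id4. Matches to any of 5 motifs searched on both strands are in capitals. The TATA box was searched as TATAAA. The CCAAT box was searched by the letters of its name. The E-box, the site of basic helix-loop-helix factors, was searched as CANNTG. The short SMAD-binding element was searched as CAGAC. The GC-rich motif that SMADs bind in BMP-responsive genes was searched as GGCGCC. No match overlapped another.
Id2, chr12:25096043-25096342, minus strand: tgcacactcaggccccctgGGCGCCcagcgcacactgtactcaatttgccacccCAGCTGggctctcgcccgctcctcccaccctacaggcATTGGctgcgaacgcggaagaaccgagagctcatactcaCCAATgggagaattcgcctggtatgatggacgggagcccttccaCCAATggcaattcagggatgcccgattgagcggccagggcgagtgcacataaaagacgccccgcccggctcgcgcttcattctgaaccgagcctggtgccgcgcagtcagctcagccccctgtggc
Id3, chr4:136143572-136143871, plus strand: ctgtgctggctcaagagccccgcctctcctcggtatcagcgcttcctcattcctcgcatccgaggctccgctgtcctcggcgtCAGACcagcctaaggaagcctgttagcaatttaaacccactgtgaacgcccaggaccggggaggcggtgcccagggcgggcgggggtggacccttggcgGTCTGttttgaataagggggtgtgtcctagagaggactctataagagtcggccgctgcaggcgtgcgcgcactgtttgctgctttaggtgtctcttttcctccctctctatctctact
Id4, chr13:48260866-48261165, plus strand: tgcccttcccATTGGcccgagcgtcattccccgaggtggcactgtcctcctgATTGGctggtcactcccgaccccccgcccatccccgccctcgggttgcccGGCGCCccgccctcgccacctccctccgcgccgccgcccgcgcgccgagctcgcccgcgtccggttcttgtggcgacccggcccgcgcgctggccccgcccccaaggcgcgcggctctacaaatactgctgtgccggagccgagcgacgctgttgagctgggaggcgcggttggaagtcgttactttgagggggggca

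Id2 and Id4 each held 1 GGCGCC, at positions -231 and -148 from the start, a motif found in 11.9% of the 32851 windows of this length. Id3 held no GGCGCC and 2 CAGAC elements, at positions -167 and -68, while Id2 and Id4 held none; 49.6% of all windows had at least 1. CCAAT was present 3 times in Id2 and 2 times in Id4 and was not in the Id3 window (37.4% of all windows), an E-box was present once in Id2 (72.3%), and TATAAA was in none of the 3 (13.6%). All 3 windows were richer in G and C than the median window (52.7%), with 63.3% in Id2, 60.0% in Id3 and 73.3% in Id4. A match is a description of the letters and no evidence of a bound factor.

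The data behind the levels were alike across arrays. Between 48.3% and 54.9% of probes were well above background on an array, no spot was saturated, and arrays of a group correlated at r = 0.987 to 0.991 over probes where they shared a slide (5 pairs) and at 0.981 to 0.987 where they did not (10 pairs). The arrays lay on 2 slides, each of which held all 5 groups. TNFα array 14 and TGFß1 array 7 were the only arrays of their groups on slide 1. Control array 6, IL-1β array 15 and IL-6 array 13 were the only ones of theirs on slide 2. Each difference of TNFα or TGFß1 from control within a slide thus rests on a single array on at least 1 side. For IL-1β and IL-6 this holds on slide 2 only. All 4 Id probes were well above background on all 15 arrays. All 10 fibroblast markers examined were above background on every array as well, among them Col1a1, Pdgfra and Thy1, and so were 3 of the 11 markers of other cell types on the array, Cd68, Cd3e and Pecam1, known from macrophages, T cells and endothelium. Among the other markers of this kind, Krt18 was above background on 10 arrays, Krt8 on 4 and Epcam on 1, while Ptprc, Adgre1, Cdh5 and Cdh1, which define leukocytes, macrophages, endothelium and epithelium, were above background on none. Known targets of 3 of the agents rose. TNFα raised Nfkbia, Tnfaip3 and Ccl2 (log2 fold-change 2.42, 3.84 and 2.55, limma q = 3.05e-06, 8.57e-09 and 2.93e-05), IL-1β raised the same 3 genes (1.11, 1.34 and 1.98, q = 0.0166, 0.000378 and 0.00299), and IL-6 with sIL-6Rα raised Socs3 (2.39, q = 0.00157). With TGFß1, Nfkbia, Tnfaip3 and Ccl2 fell by 0.72, 0.69 and 1.98.

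Levels are given as log2 of the processed spot brightness minus the 75th percentile of log2 brightness over the probes of the array, and are compared only within a gene, since brightness differs between probes for reasons other than abundance. A gene was counted as changed when its q-value in a limma fit over all 29334 probes tested was under 0.05 and its fold-change at least 1.5.

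TGFß1 lowered all 4 Id genes. Id4 fell the furthest, 12.2-fold, followed by Id2 (4.96-fold), Id3 (2.41-fold) and Id1 (2.00-fold). All 4 members of 4 passed the test downwards, where 10.4% of all probes tested did so, and the TGFß1 arrays lay below the control arrays for each of them, where this held for 18.9% of probes. The median log2 fold-change over the 4 genes was -1.79, against 0.07 over all probes. RNA was measured in bulk, so fewer cells making a transcript and less of it per cell cannot be told apart.

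Id4, the family member best known from neural and mammary development, had levels of 0.68, 0.48 and 0.41 on the control arrays numbered 1, 6 and 11. On the TGFß1 arrays numbered 2, 7 and 12 they were -2.88, -3.39 and -2.99. The spot brightness itself was 710, 604 and 433 on the control arrays and 48.6, 33.0 and 47.7 on the TGFß1 arrays. The groups were separated by 3.30 log2 units, several times the spread within either (SD 0.14 and 0.27, n = 3). The log2 fold-change was -3.61 (SE 0.13, q = 3.73e-08), the 58th lowest of all 29334 probes, and it was -3.93 on slide 1 and -3.42 on slide 2. With the normexp background correction in place of the processed signal it was -2.55, still past the test.

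Id2, which also sequesters E proteins and is known for its part in lymphoid and mammary cells, was at 1.92, 1.61 and 2.16 on the control arrays. The TGFß1 arrays gave -0.03, -1.04 and -0.18. Array 7 was the lowest of the 3, and even the highest was 1.64 below the lowest control array. Id2 fell by 2.31 on the log2 scale (SE 0.29, q = 0.000171), with -3.08 on slide 1, where array 7 was the only TGFß1 array, and -1.71 on slide 2.

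Id3, an immediate target of serum and BMP signals, was at 4.56, 3.73 and 4.75 on the control arrays. With TGFß1 it was at 3.09, 2.98 and 3.16. The TGFß1 arrays were tightly grouped (SD 0.09), while control array 6, on slide 2, was clearly under the other control arrays, and the gap between the groups was 0.57. The log2 fold-change was -1.27 (SE 0.25, q = 0.00357). Within slides it was -1.67 on slide 1 and -0.61 on slide 2, the latter against control array 6 alone.

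Id1, the member most studied as a BMP target, was at 4.67, 4.80 and 4.45 on the control arrays and at 4.18, 2.97 and 3.76 on the TGFß1 arrays. The TGFß1 arrays were all lower, by a gap of 0.28, but they were spread over more than a log2 unit, and array 7 decided much of the difference. The log2 fold-change was -1.00 (SE 0.29, q = 0.0264). It was -1.59 on slide 1, where array 7 was the only TGFß1 array, and -0.83 on slide 2. Leaving out TGFß1 array 7 brought it to -0.67 (q = 0.0972), and the call was also lost without control array 1 (-0.99, q = 0.0596), control array 6 (-0.92, q = 0.0804) or TGFß1 array 12 (-1.06, q = 0.0533). Id1 was lower with TGFß1 in each of these fits.

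**Figure D1:**
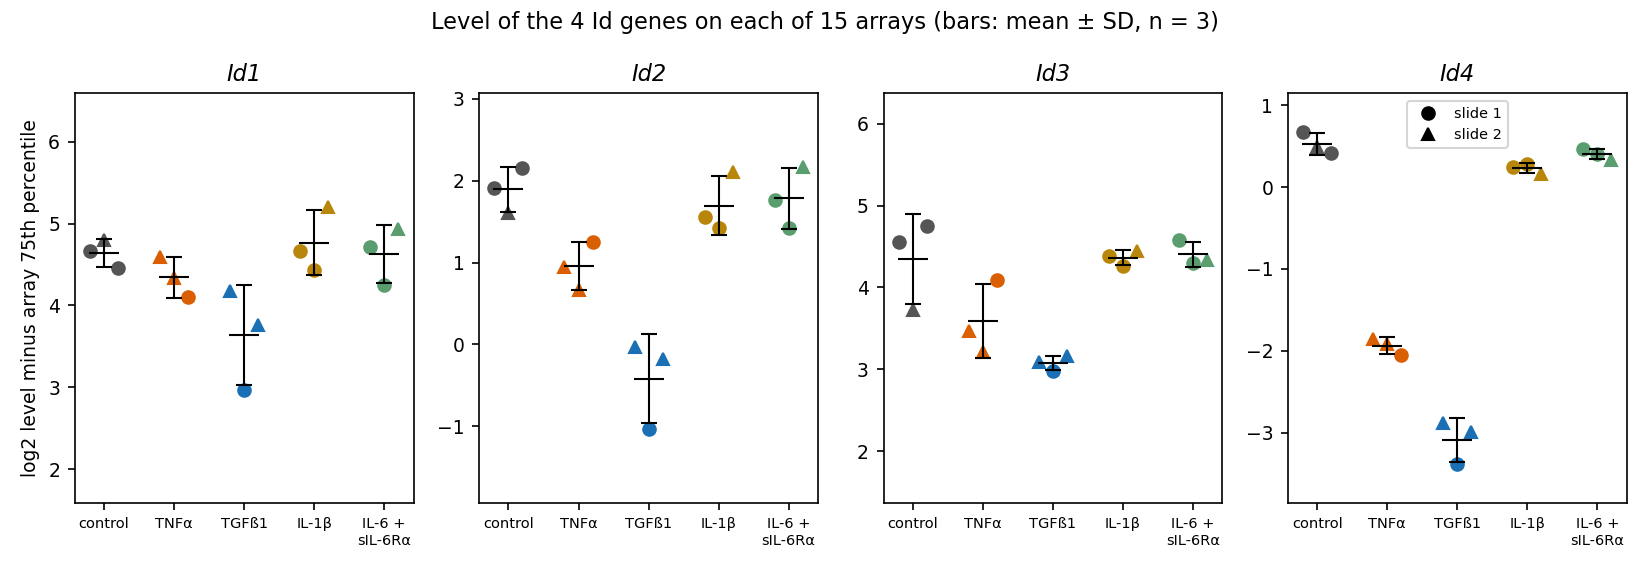
Level of each Id gene (log2 brightness minus the 75th percentile of the array, each panel with its own origin and the same span) on each array of the 5 groups; circles are arrays on slide 1, triangles on slide 2, and the black bars are the mean ± SD of 3 arrays. Id4 with TGFß1 lay between -3.39 and -2.88 and with TNFα between -2.05 and -1.85, under all other groups, which lay between 0.16 and 0.68.

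TNFα lowered Id4 as well, 5.51-fold, while the means of Id1, Id2 and Id3 lay under those of control MEFs without passing the test. Id4 was the 1 member of 4 called lower, where 5.96% of probes were called lower; the median over the 4 genes was -0.85, against 0.04 over all probes. Id4 was at -1.85, -1.92 and -2.05 on the TNFα arrays numbered 4, 9 and 14, and the gap to the control arrays was 2.26. Its log2 fold-change was -2.46 (SE 0.13, q = 4.30e-07), the 133rd lowest of all probes, with -2.59 on slide 1 and -2.37 on slide 2.

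Id2 was at 0.95, 0.66 and 1.25 with TNFα. These 3 arrays too were all below the control arrays, as were those of Id4, 2 members of 4 where 15.8% of probes showed it. The log2 fold-change of Id2 was -0.94 (SE 0.29, 95% CI -1.57 to -0.31, q = 0.0531), just on the other side of the threshold. It was -0.79 on slide 1 and -0.80 on slide 2, and between -0.97 and -0.91 within each of the 3 runs of label numbers (arrays 1 to 5, 6 to 10 and 11 to 15; every run has all 5 groups once). With slide and run as blocks the value was -0.99 (q = 0.000336), past the test. Id2 also passed with the 75th percentile taken over spots in place of probes (-0.94, q = 0.0488), and without TGFß1 array 7 (q = 0.0263), IL-1β array 15 (q = 0.0485) or IL-6 array 13 (q = 0.0499), none of which enters the difference itself.

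Id3 was at 3.47, 3.21 and 4.10 with TNFα, a range that took in control array 6. The log2 fold-change was -0.76 (SE 0.25, q = 0.0739), -0.56 on slide 1 and -0.39 on slide 2. TNFα array 14, on slide 1, was the highest of its group, and the control arrays on slide 1 were above control array 6 on slide 2. This order was not shared by all groups. The mean of Id3 on slides 1 and 2 was 2.98 and 3.12 with TGFß1, 4.32 and 4.45 with IL-1β, and 4.44 and 4.34 with IL-6. With slide and run as blocks the log2 fold-change of Id3 was -0.63 (q = 0.000458), past the test. Id3 also passed without control array 6 (-1.07, q = 0.00933) or TNFα array 14 (-1.01, q = 0.0244).

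Id1 did not pass the test between TNFα and control. It was at 4.60, 4.34 and 4.10 with TNFα, overlapping the control arrays, and the log2 fold-change was -0.29 (95% CI -0.93 to 0.34, q = 0.578). The interval comes close to the size of the decline with TGFß1. The difference was -0.46 on slide 1 and -0.33 on slide 2, and -0.069, -0.46 and -0.36 within the 3 runs. With slide and run as blocks it was -0.47 (q = 0.00465), past the q threshold but under the 1.5-fold limit.

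The summed level of the 10 fibroblast markers was lower with TNFα, where it ranged from 9.78 to 10.19, than in control MEFs (10.23 to 10.56), and with TGFß1 it ranged from 10.19 to 10.55. Of the 10, 1 was called higher and 4 lower with TNFα, and 2 higher and 3 lower with TGFß1, where 4.09% and 5.96% of all probes were called higher and lower with TNFα and 7.51% and 10.4% with TGFß1. The summed level of the 11 markers of other cell types on the array ranged from 0.37 to 0.58 in control MEFs, from 0.37 to 0.70 with TNFα and from 0.58 to 1.00 with TGFß1, in which Krt8, a keratin of simple epithelia that was not well above background on any control array, was at least 3.36-fold higher (q = 0.0176). The part of these shifts in the Id values was not tested.

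With IL-1β and with IL-6 and sIL-6Rα, none of the 4 members passed the limma test, in comparisons in which 0.232% and 0.058% of all probes were called in either direction. At an unadjusted limma p under 0.05 there was 1 member with IL-1β, Id4, and 0 with IL-6, where 3.61% and 3.18% of all probes had such a p. With IL-1β, Id1 was at 4.67, 4.43 and 5.21, Id2 at 1.55, 1.43 and 2.10, and Id3 at 4.38, 4.26 and 4.45, all overlapping the control arrays. The 95% intervals of their log2 fold-changes ran from -0.51 to 0.77 for Id1, from -0.83 to 0.43 for Id2 and from -0.54 to 0.57 for Id3. Id4, at 0.25, 0.29 and 0.16 on IL-1β arrays 5, 10 and 15, was just below all control arrays, as were 2.17% of all probes. Its log2 fold-change was -0.29 (SE 0.13, q = 1.00), with an interval from -0.58 to -0.0040, and it was -0.28 on slide 1 and -0.32 on slide 2.

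With IL-6 and sIL-6Rα the log2 fold-changes were -0.010 for Id1 (95% CI -0.65 to 0.63), -0.11 for Id2 (-0.74 to 0.52), 0.058 for Id3 (-0.49 to 0.61) and -0.12 for Id4 (-0.41 to 0.17), all with q = 1.00. On arrays 3, 8 and 13, Id4 was at 0.47, 0.41 and 0.34 and Id2 at 1.76, 1.42 and 2.17. Both genes overlapped the control arrays, and 2 of the 3 arrays lay outside the control range, both below it for Id4 and 1 on either side of it for Id2. None of these intervals reached the value of the same gene with TGFß1, and that of Id4 did not reach its value with TNFα (-2.46).

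**Figure D2:**
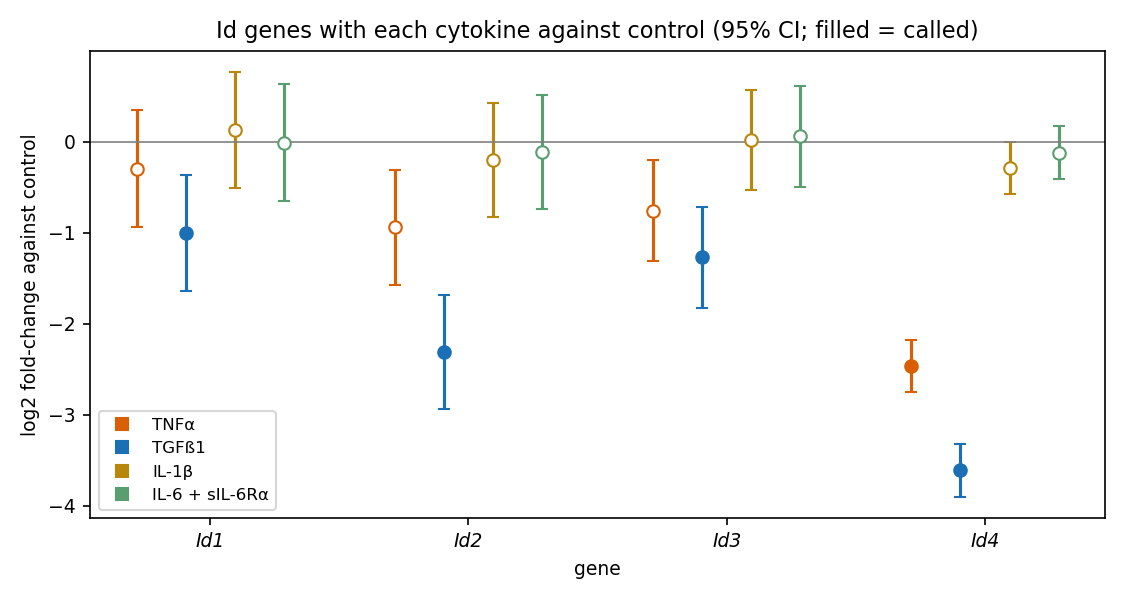
Log2 fold-change of each Id gene against control for the 4 treatments, with 95% confidence intervals from the fit over 15 arrays; filled points passed the test (q under 0.05 and at least 1.5-fold) and open points did not. All 4 TGFß1 points are filled, from -3.61 for Id4 to -1.00 for Id1, and Id4 is the 1 filled point with TNFα (-2.46).

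Ordered by mean level, Id4 was highest in control MEFs (0.52 ± 0.14, SD, n = 3), then with IL-6 (0.40 ± 0.07), IL-1β (0.23 ± 0.06), TNFα (-1.94 ± 0.10) and TGFß1 (-3.09 ± 0.27). The first 3 neighbours in this order did not differ by the test, and both the step from IL-1β down to TNFα and that from TNFα down to TGFß1 did. Id2 followed the same outline, with control at 1.89 ± 0.28, IL-6 at 1.78 ± 0.38, IL-1β at 1.69 ± 0.36, TNFα at 0.95 ± 0.29 and TGFß1 at -0.42 ± 0.54; here the step from IL-1β to TNFα did not pass and that from TNFα to TGFß1 did. Id3 had IL-6 (4.41 ± 0.15), IL-1β (4.36 ± 0.09) and control (4.35 ± 0.54) on nearly one level, then TNFα (3.59 ± 0.46) and TGFß1 (3.08 ± 0.09), and no single step between neighbours passed. Id1 ran from IL-1β (4.77 ± 0.40) over control (4.64 ± 0.17), IL-6 (4.63 ± 0.35) and TNFα (4.34 ± 0.25) to TGFß1 (3.64 ± 0.61), again with no step between neighbours past the test. TGFß1 thus had the lowest mean for each of the 4 genes and TNFα the second lowest.

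TGFß1 and TNFα were compared with each other directly, at their single doses of 5 and 10 ng/ml and at the same 24 h. Id2 and Id4 were lower with TGFß1, 2 members of 4 where 6.61% of probes were called lower. Id2 differed by -1.37 (SE 0.29, q = 0.00610) and Id4 by -1.15 (SE 0.13, q = 7.41e-05). With normexp correction the Id4 difference was -0.59 (q = 0.000495), just past the 1.5-fold limit. Id1 differed by -0.71 (95% CI -1.35 to -0.07, q = 0.139) and did not pass, but did so with slide and run as blocks (-0.71, q = 0.000374) or with slide alone (q = 0.0159). For Id3 the difference was -0.51 (95% CI -1.07 to 0.04, q = 0.221).

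All 4 members were also lower with TGFß1 than with either interleukin. Against IL-1β, where 10.2% of probes were called lower, the log2 differences were -1.13 for Id1, -2.11 for Id2, -1.29 for Id3 and -3.32 for Id4 (q = 0.0160, 0.000327, 0.00356 and 2.54e-08). Against IL-6, where 9.69% were, they were -0.99, -2.20, -1.33 and -3.49 (q = 0.0302, 0.000228, 0.00294 and 2.87e-08). The call of Id1 was lost without TGFß1 array 7 in both (-0.80, q = 0.0577 against IL-1β; -0.66, q = 0.110 against IL-6), without IL-1β array 15 (-0.91, q = 0.0584), and without TGFß1 array 12 (q = 0.0597) or IL-6 arrays 3 (q = 0.0765) or 13 (q = 0.0935). It was also lost with only the 2 groups compared in the fit (q = 0.0704 against IL-1β and 0.0882 against IL-6) and, against IL-6, without the filter on dim probes (q = 0.0689). These comparisons and those against control share the TGFß1 arrays, so they are not separate pieces of evidence.

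TNFα against the interleukins again set Id4 apart. Id4 was lower with TNFα by 2.17 than with IL-1β (log2 difference -2.17, q = 2.90e-06) and by 2.34 than with IL-6 (-2.34, q = 6.56e-07), in each case the 1 member of 4 called, where 3.01% and 5.14% of probes were called lower. Id1, Id2 and Id3 differed by -0.42, -0.74 and -0.77 from IL-1β and by -0.28, -0.83 and -0.82 from IL-6, and none passed. With slide and run as blocks Id1 (-0.60, q = 0.00217), Id2 (-0.79, q = 0.00196) and Id3 (-0.65, q = 0.000695) passed against IL-1β, and Id2 (-0.88, q = 0.000737) and Id3 (-0.69, q = 0.000307) against IL-6. Id3 also passed without TNFα array 14 (q = 0.0440 and 0.0209) or without control array 6 (q = 0.0342 and 0.0169). IL-1β and IL-6 did not differ by the test for any member, where 0.399% of probes were called, and 0 members had an unadjusted p under 0.05; the largest difference was -0.17 for Id4 (95% CI -0.46 to 0.12).

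**Figure D3:**
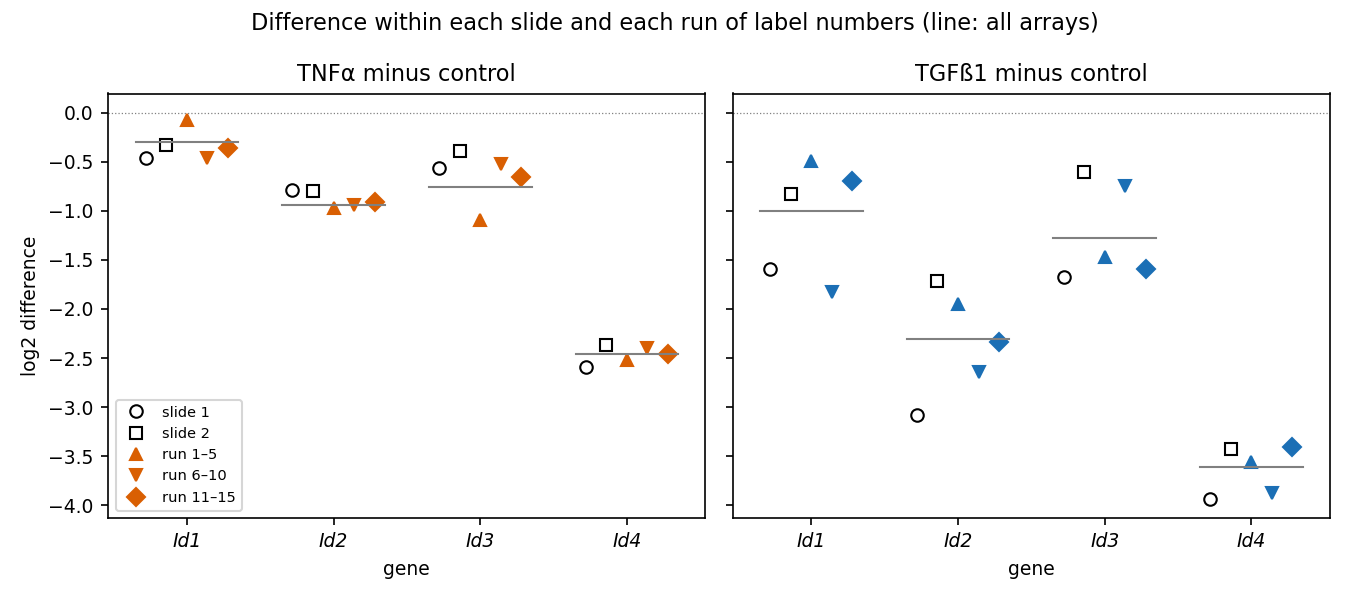
Log2 difference from control of the 4 Id genes with TNFα (left) and TGFß1 (right), taken within each slide (open symbols, means of the arrays of a group there) and within each run of label numbers (filled symbols, 1 array against 1); grey lines are the differences over all arrays. On slide 1 the only TNFα and TGFß1 arrays were 14 and 7, and on slide 2 the only control array was 6. Every point lies below 0. Id4 with TNFα varied from -2.59 to -2.37 across these splits and Id1 with TGFß1 from -1.83 to -0.49.

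Within the 3 runs of label numbers, Id4 differed from the control array of its run by -2.53, -2.40 and -2.46 with TNFα and by -3.56, -3.87 and -3.41 with TGFß1. Id2 gave -0.97, -0.94 and -0.91 with TNFα. With TGFß1, Id2 gave -1.95, -2.65 and -2.34, Id3 gave -1.47, -0.75 and -1.60, and Id1 gave -0.49, -1.83 and -0.69. The run of arrays 6 to 10 thus held both the largest decline of Id1 and the smallest of Id3; in that run the TGFß1 array was on slide 1 and the control array on slide 2.

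Over the 15 arrays the levels of the 4 genes were correlated to different degrees. Pearson's r was 0.91 between Id2 and Id4, 0.90 between Id2 and Id3, 0.88 between Id3 and Id4, 0.87 between Id1 and Id2, 0.76 between Id1 and Id4 and 0.64 between Id1 and Id3. These are descriptions over 15 arrays that share their treatments, slides and cell line.

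Among 13502 named genes tested, those most like Id4 in this sense were Klf3 (r = 0.992), a Krüppel-like zinc finger repressor, Cacna1a (0.983), a calcium channel subunit, and Foxred2 (0.979), an enzyme of the endoplasmic reticulum. Against control, Klf3 was at -0.88 with TNFα and -1.25 with TGFß1 on the log2 scale, Cacna1a at -1.51 and -2.02, and Foxred2 at -1.66 and -2.50. These genes were chosen for their likeness to Id4 over the same arrays, so a shared order of the groups is no finding. Id2 was most like Atoh8 (0.959), a basic helix-loop-helix factor, Cdc14a (0.953), a phosphatase, and Lgals3 (0.947), a galectin. Id3 was also most like Atoh8 (0.968), followed by Crybg1 (0.964) and Mgmt (0.957), a DNA repair enzyme. Id1 had looser neighbours, 6430571L13Rik (0.922), Rell2 (0.914) and Ckap2 (0.907), a spindle protein, and Id2 was the 8th in its order.

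Of the E proteins, the partners that Id proteins bind, Tcf4 fell with both cytokines and the others did not pass the test. Tcf4 changed by -1.01 with TNFα (SE 0.18, q = 0.00310) and by -0.93 with TGFß1 (SE 0.18, q = 0.00312), where 5.96% and 10.4% of all probes were called lower. Tcf3 was at -0.29 and 0.042 and Tcf12 at -0.078 and 0.21 in these comparisons. The list median was -0.29 with TNFα and 0.04 with TGFß1, and with the interleukins none of the 3 was called.

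Only 4 of 21 tissue-restricted helix-loop-helix activators, which work as partners of E proteins, were bright enough to be tested; the muscle and nerve factors Myod1, Myog, Neurod1 and Olig2 were above background on no array. With TNFα, 1 was higher and 2 lower, where 4.09% and 5.96% of probes were. Twist2 rose by 0.94, while Twist1 fell by 0.94 and Atoh8 by 1.08. With TGFß1, Twist1 fell by 1.16 and Atoh8 by 2.34, 2 of 4 lower and none higher, where 10.4% and 7.51% of probes were. Twist1 and Twist2 are repressors and mesenchymal regulators rather than activators in many settings.

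The helix-loop-helix repressors of the Hes, Hey and Dec families, several of which also pair with Id proteins, moved differently under the cytokines. Of 8 listed, 5 were tested. With TGFß1, 3 were higher and none lower, where 7.51% of probes were higher: Hes1, a Notch target, by 3.50 (SE 0.84, q = 0.0102), Bhlhe41 by 1.51 and Bhlhe40 by 1.23. Hes1 was well above background on 2 of the 3 control arrays and Bhlhe41 on 1. With TNFα, none was higher and 2 were lower, where 4.09% and 5.96% of probes were: Bhlhe40 by 1.15 and Hes6 by 0.78. The list median was 1.23 with TGFß1 and -0.78 with TNFα.

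Upstream of the Id genes, 10 of 14 BMP ligands, receptors and SMADs were tested, and Bmp2, Bmp4, Bmp6 and Bmp7 were above background on no array. With TGFß1, 3 were higher and 2 lower, where 7.51% and 10.4% of all probes were. Bmpr1b, a type I BMP receptor that was not well above background on any control array, was at least 41.7-fold higher (q = 4.63e-06), and at least 3.03-fold higher with TNFα (q = 0.00229), the single member of this list called there. Of all probes, 4.09% were called higher and 5.96% lower with TNFα. Acvr1, another type I receptor, rose by 1.03 and Bmpr2, the type II receptor, by 0.78 with TGFß1, whereas Acvrl1 fell by 1.28 and Smad9, a BMP SMAD, fell by 1.48. The list median was 0.27 with TGFß1 and -0.05 with TNFα.

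The inhibitors of BMP and SMAD signalling were called in both directions, 12 of 14 being tested. With TGFß1, 3 were higher and 3 lower, against 7.51% and 10.4% of all probes. With TNFα, 2 were higher and 1 lower, against 4.09% and 5.96%. Smad6, an inhibitory SMAD of the BMP branch and itself known as a BMP target, fell by 1.59 with TNFα (SE 0.23, q = 0.000653) and by 1.92 with TGFß1 (SE 0.23, q = 0.000112). Smad7, the inhibitory SMAD induced by TGFß1, rose by 2.02 with TGFß1 and Skil, a SMAD corepressor, by 1.53, while Fst, the activin-binding follistatin, fell by 2.20. Grem1, which binds BMPs outside the cell, rose by 0.76 with TNFα and fell by 0.82 with TGFß1. The list medians were 0.15 and 0.28.

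All 9 genes of the list of TGFß1 receptors, SMAD2, SMAD3 and early TGFß1 targets were tested. With TGFß1, 3 were higher and 1 lower, where again 7.51% and 10.4% of all probes were. Pmepa1, a feedback inhibitor, rose by 2.30 and Tgif1, a SMAD corepressor, by 1.22, and Tgfbr2, the type II receptor, fell by 0.90. With TNFα, Atf3, a stress-induced factor known to act with SMAD3 on Id1 in epithelial cells, rose by 1.02 (q = 0.0489) and Tgif1 by 0.82, where 4.09% of all probes were called higher. Atf3 was at 0.50 with TGFß1 and did not pass. Among 15 other partners and targets of Id proteins, of which 14 were tested, Ets2, an ETS factor that Id proteins can bind, rose by 1.64 with TNFα and by 1.80 with TGFß1, and Rbl2, a relative of the retinoblastoma protein, fell by 0.89 with TGFß1; the others did not pass. No gene of these 7 lists was called by limma with IL-1β or with IL-6, where 2 and 3 of the 57 tested had an unadjusted p under 0.05, where 3.61% and 3.18% of all probes had.

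**Figure D4:**
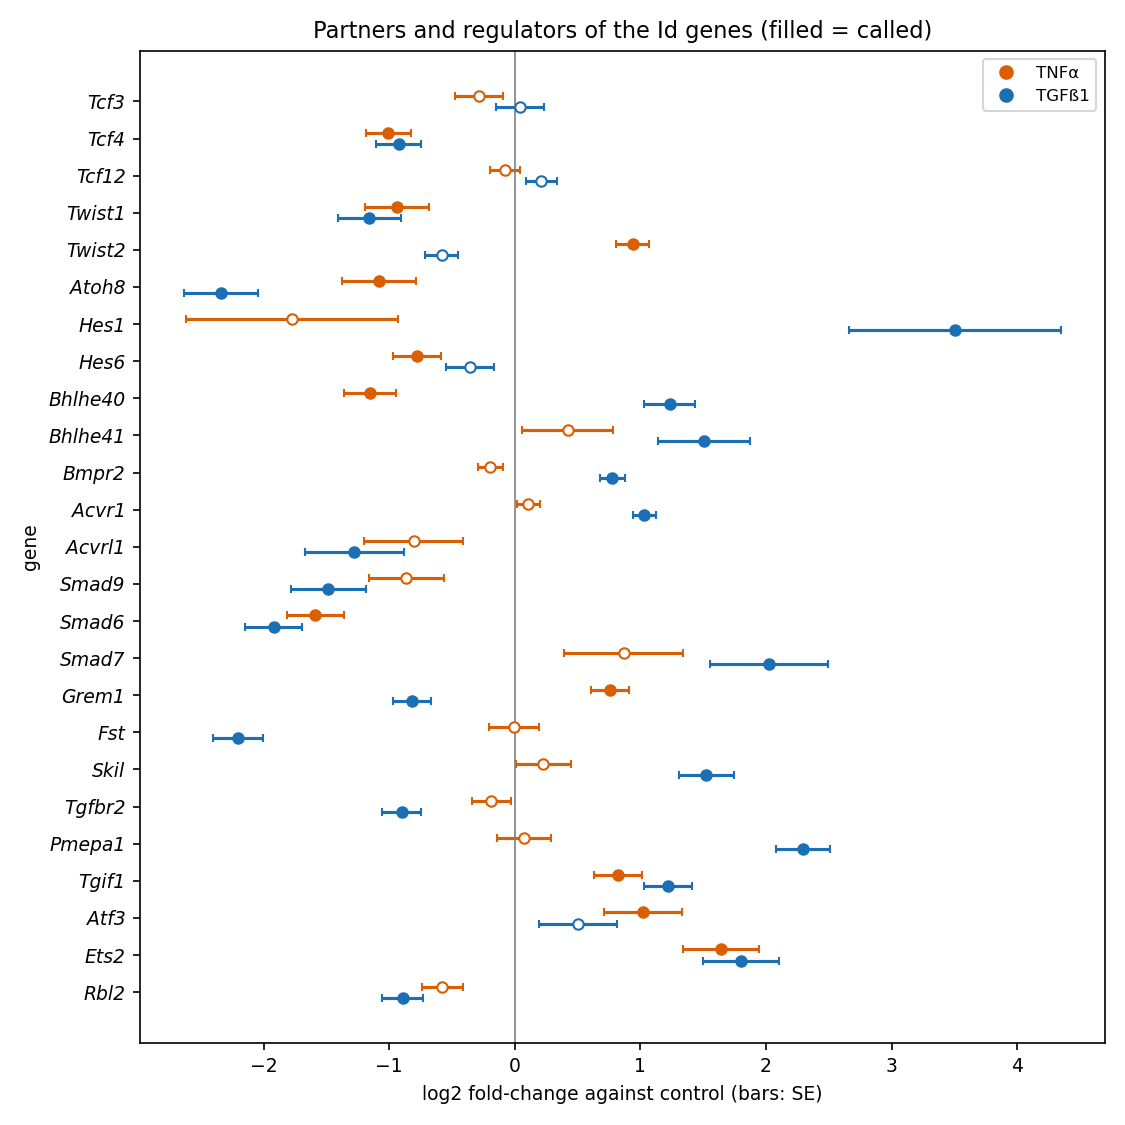
Log2 fold-change against control with TNFα and TGFß1 of the E proteins and of the other listed partners and regulators named in the text apart from Bmpr1b; bars are standard errors and filled points passed the test. Tcf4, Twist1, Atoh8 and Smad6 passed the test below 0 with both cytokines, whereas Bhlhe40 and Grem1 passed it on opposite sides of 0.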

How the data were processed

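RNA of 15 samples of 3T3 MEFs was hybridised to one-colour Agilent arrays, scanned and quantified by the authors with Agilent Feature Extraction (version 10.7.3.1 per the submitters' processing notes). The deposited values are spot intensities, background-subtracted by that software and not scaled between arrays; the deposited series table holds the same intensities. The study's methods name limma, but give no scaling of arrays and no limit on dim probes.

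Here, control spots and spots marked as outliers were left out, log2 intensities of the spots of a probe were averaged, and the 75th percentile over probes was subtracted on each array. Probes well above background (at least 0.5 of their spots) on every array of at least 1 group were tested, 29334 of 56605. limma (version 3.58.1, R 4.3.3) was fitted to all 15 arrays (lmFit, eBayes, two-sided), with q-values by Benjamini-Hochberg over all probes tested and calls at q under 0.05 and 1.5-fold; the method was tested on simulated data. With 3 arrays against 3, an exact permutation test of a single gene could not go below p = 0.1. Precision is limited by the number of arrays. Probes were named through RefSeq (GRCm38.p6). Slides came from the array headers.

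The 3 runs of label numbers were treated as pairing the arrays in an alternative fit, since with the slide removed all 30 pairs of arrays of a run and of different groups deviated together (r = 0.114 to 0.671), against 2 of 60 pairs from different runs with r over 0.1; without removing the slide it was 12 of 30 and 28 of 60. The pairing is thus read from the data and the labels' numbers.

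The members and gene lists were chosen with earlier results of these data known. Named genes were all 4 members, all E proteins and treatment checks, at most 5 called genes of each other list by absolute log2 change, and the 3 genes most correlated with each member. Some named genes are counted in their lists but not reported here by name. The alternatives, run for the members and not for the lists, were quantile and median scaling, normexp (offset 50), no filter, outlier spots kept, fewer groups in the fit, slide and run blocks, the series table and leaving out each array.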

Additional observations from a re-analysis of the deposited data

How the results depend on the processing

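TGFß1 lowered Id2, Id3 and Id4, and TNFα lowered Id4, past the test under every alternative run. Id1 with TGFß1 was lower in all of them but missed the threshold without the filter on dim probes (-1.00, q = 0.0601), with only the 2 groups compared (-1.00, q = 0.0688) and without 4 of the 6 arrays, over a range of -1.27 to -0.67. The number of Id genes called with TNFα against control was 1, and it was 2 with normexp, with only the 2 groups compared, with slide as a block and with the 75th percentile over spots (chosen after seeing the data), and 3 with quantile normalization, with run as a block and with slide and run as blocks; leaving out 1 array gave 1 to 2. The genes gained were Id2 (quantile -0.95, normexp -0.91, 2 groups -0.94, slide -1.02, slide and run -0.99, run -0.94, spots -0.94) and Id3 (quantile -0.79, slide and run -0.63, run -0.76); without 1 array Id3 ranged from -1.07 to -0.55. Against IL-1β the count with TNFα went from 1 to 2 (quantile), 3 (run) or 4 (slide and run), and to 1 to 2 without 1 array. Against IL-6 it went from 1 to 2 (quantile, slide) or 3 (normexp, run, slide and run), and to 1 to 2 without 1 array. Calls over all 29334 probes shifted too. Against control, TNFα had 1749 lower in the main fit, 1896 (quantile), 1818 (slide), 2188 (run) and 2270 (slide and run). It had 1777 (spots), 1246 (normexp) and 1302 of 28268 (2 groups). Against IL-1β it had 883, and 991 (quantile), 1523 (run) and 1687 (slide and run). Against IL-6 it had 1508, and 1626 (quantile), 1613 (slide), 1137 (normexp), 1985 (run) and 2133 (slide and run). The cause of these shifts was not tested.

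Values near 0 changed sign. Id3 with IL-1β was -0.070 with median scaling. Without 1 array it ranged from -0.29 to 0.22 and Id1 with IL-1β from -0.092 to 0.30, and with IL-6 Id1 ranged from -0.16 to 0.18, Id2 from -0.30 to 0.072 and Id3 from -0.25 to 0.26. Between IL-1β and IL-6, Id1 ranged from -0.082 to 0.31, Id2 from -0.29 to 0.10 and Id3 from -0.096 to 0.046 without 1 array. None of these was called. Outlier spots kept and the series table changed no call. Averaging the probes of a gene was not run, since each Id gene has 1 probe. Id4 was nearest to background with TGFß1, with brightness between 33.0 and 48.6, which is where normexp moved its value most.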
